A study of Mus musculus with 4 samples.

Results

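The 10 genes described here mark the brain vessel wall and its barrier: *Cldn5*, *Slc2a1*, *Mfsd2a*, *Abcb1a*, *Slco1a4*, *Slco1c1*, *Flt1*, *Tek*, *Pecam1* and *Plvap*. They were chosen by name for their known roles, with earlier results of these data known, and are 10 of the 32285 genes counted. Their levels were read in 789 endothelial nuclei and in the 13 other cell types that the authors named among 39461 nuclei. The nuclei came from a block of the mouse posterior hindbrain that holds the area postrema and the nucleus of the solitary tract, and were profiled by droplet sequencing of 3′ RNA ends. Of the 4 libraries 2 were control and 2 were AgRP-Gq;POMC-Gi, with 9723 to 10051 nuclei and 48904976 to 53089402 UMIs (distinct RNA molecules counted) in each. AgRP-Gq;POMC-Gi mice carry AgRP-IRES-Cre and POMC-Dre, which by design switch on the activating receptor hM3DGq in AgRP neurons and the inhibitory receptor hM4DGi in POMC neurons. Controls, labelled WT, carry both receptor alleles without either recombinase according to the study's methods. All were adult mice of a C57BL/6 background given the receptor ligand CNO at 3 mg per kg, and tissue was taken 1 h later. Mice of both sexes were used. The study's methods state that samples of a condition were pooled, and which animals or sexes made up each library is not given in the sources used here. The p-values therefore measure only the spread between 2 libraries of a group, which may be technical. Fewer transcripts per nucleus in a library and a change in its mix of endothelial nuclei cannot be told apart in the summed levels.

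Capillaries of most brain regions form the blood-brain barrier. Their endothelial cells are sealed by tight junctions, take up nutrients through selective carriers and pump out many foreign compounds. Capillaries of the choroid plexus and of circumventricular organs such as the area postrema lack this barrier and have fenestrae, small pores spanned by a diaphragm of PLVAP protein.

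The endothelial label was first compared with 8 endothelial markers that are not among the 10 genes. All 8 were detected, and their summed level was 7398 to 8689 CPM (UMIs of a gene scaled to 1e6 UMIs of the same nuclei) in the 4 libraries, against at most 804 CPM in any library of another cell type. Endothelial nuclei were shallow, with a median of 1460.0 UMIs. They numbered 218 and 246 in the controls, against 113 and 212 in AgRP-Gq;POMC-Gi. Replicate 2 of both groups held most of the choroid plexus, with 436 and 329 nuclei against 2 and 6 in replicate 1. Among the kept nuclei 168 barcode sequences occurred in more than 1 library, and 0 of them marked an endothelial nucleus in more than 1. Cell types and clusters were built from expression, so differences between them are given without a test.

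Endothelial nuclei had the highest mean level of 9 of the 10 genes, and for 8 of these every endothelial library lay above every library of every other type. *Mfsd2a* reached a similar level in astrocytes. *Plvap* was low and uneven in endothelium and was also present in neurons, which had the higher mean when control replicate 2 was left out or when the endothelial nuclei of cluster 164 were. Means ± SD are over the 4 libraries, and 95% intervals for shares of nuclei are exact binomial (Clopper-Pearson) and cover counting error only.

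**Figure D1:**
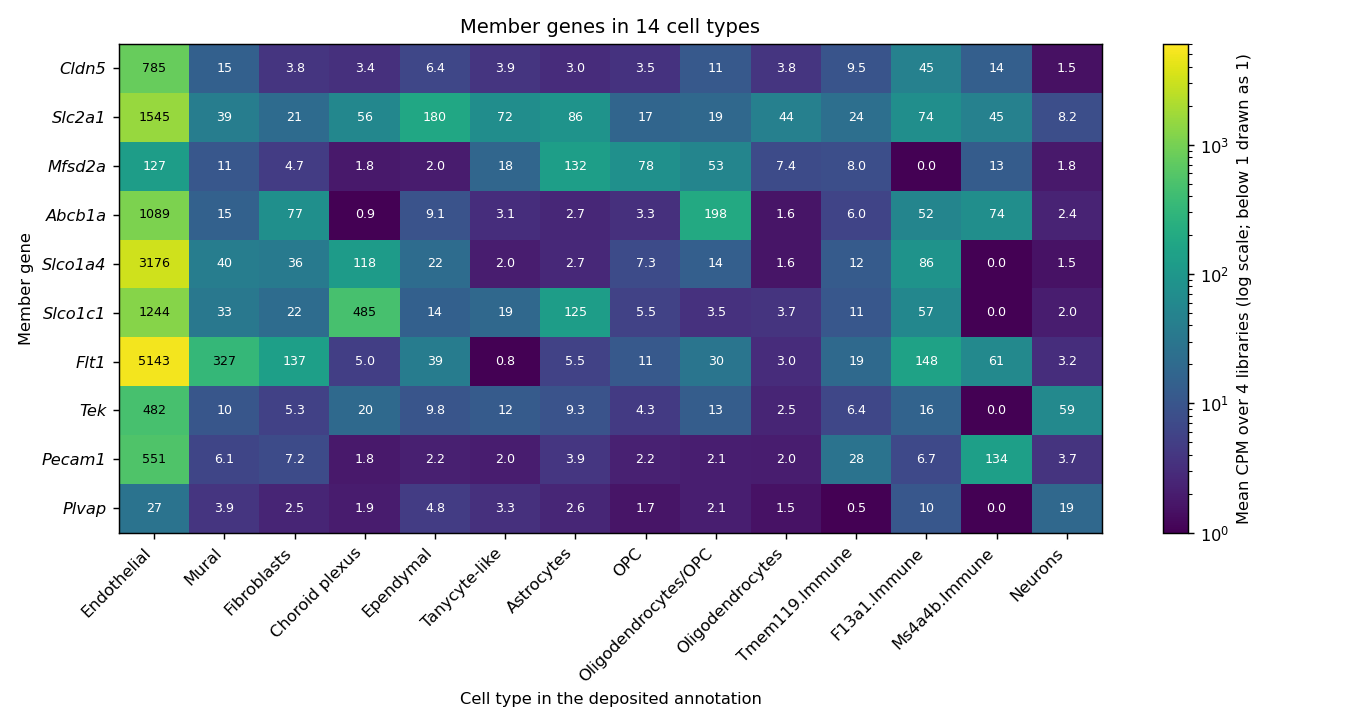
Mean CPM over 4 libraries of the 10 genes (rows) in 14 cell types (columns), printed in each cell and drawn on a logarithmic colour scale. The endothelial column is brightest for 9 genes, *Mfsd2a* is brightest in astrocytes with 132 CPM, and *Plvap* has 27.4 CPM in endothelium and 19.0 CPM in neurons.

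*Cldn5* encodes claudin-5, the main tight junction protein of brain endothelium. Its endothelial level was 670.4 and 584 CPM in the controls, against 932 and 953 CPM in AgRP-Gq;POMC-Gi, a mean of 785 ± 186 CPM. Both AgRP-Gq;POMC-Gi libraries stood above both controls. A UMI was found in 59.1% of endothelial nuclei (95% interval 55.5 to 62.5%) and in 1.00% of oligodendrocytes, which had a deeper median of 2460.0 UMIs. Stray RNA and expression in oligodendrocytes were not told apart. The next type, F13a1.Immune, an immune type of the annotation, had 45.1 ± 44.0 CPM from 7 UMIs in all, and each type from there to astrocytes overlapped its neighbour in the order of levels. The 5 genes whose levels followed *Cldn5* most closely over the 14 types were *Erg*, *Ly6a*, *Adgrl4*, *Robo4* and *Ptprb*. Their Pearson r was 0.93 to 0.97 on log2(CPM + 1), a description over types that share the same libraries.

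*Slc2a1* encodes GLUT1, the glucose carrier of the barrier. It stood at 2210.2 and 1451 CPM in control endothelium, against 1398 and 1119 CPM in AgRP-Gq;POMC-Gi, a mean of 1545 ± 467 CPM. Both AgRP-Gq;POMC-Gi libraries stood below both controls. It was found in 77.4% of endothelial nuclei (74.4 to 80.3%), in 32.2% of ependymal nuclei, in 25.3% of astrocytes and in 11% of oligodendrocytes. Ependymal cells, which line the ventricles, ranked second with 180.2 ± 35.4 CPM, and astrocytes followed with 85.9 ± 10.2 CPM, ranges that did not overlap. Oligodendrocytes had 43.9 ± 7.97 CPM, and with 16816 nuclei they held 29.1% of all *Slc2a1* UMIs, beside 29.1% in endothelium.

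*Mfsd2a* encodes a carrier of lysophospholipids with docosahexaenoic acid that also restrains vesicle transport across barrier endothelium. Endothelium had 119.9 and 93.0 CPM in the controls, against 175 and 119.5 CPM in AgRP-Gq;POMC-Gi. Astrocytes had 147 and 152 CPM in the controls, against 138 and 93.1 CPM in AgRP-Gq;POMC-Gi, so the 2 types overlapped. The mean was 132 ± 26.8 CPM in astrocytes and 127 ± 34.3 CPM in endothelium, and astrocytes held 66.3% of all *Mfsd2a* UMIs against 4.87% in endothelium. A UMI was found in 35.0% of astrocytes and 16.9% of endothelial nuclei (14.3 to 19.7%), and at 800 UMIs per nucleus in 10.0% and 8.62%. Oligodendrocyte precursors (OPC) followed with 78.2 ± 18.3 CPM, and mature oligodendrocytes had 7.42 ± 1.17 CPM. Among the 11 astrocyte clusters the pooled level ran from 47.8 to 159 CPM, with no cluster at 0. Without control replicate 1 the endothelial mean became the higher of the 2.

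*Abcb1a* encodes P-glycoprotein, an efflux pump of the luminal membrane. Its level was the most even of the barrier genes between libraries, with 1131 and 1098 CPM in the controls, against 1141 and 985 CPM in AgRP-Gq;POMC-Gi (1089 ± 71.5 CPM). The groups overlapped. It was found in 70.5% of endothelial nuclei (67.2 to 73.6%) and in 0.42% of oligodendrocytes. The small mixed type Oligodendrocytes/OPC, 123 nuclei, ranked second at 198 ± 219 CPM but ranged from 0 to 479 CPM. Fibroblasts had 76.8 ± 58.6 CPM, carried mostly by cluster 93 with 468.5 CPM against 2.91 CPM in the lowest of the 5 fibroblast clusters.

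*Slco1a4* and *Slco1c1* encode organic anion carriers of the OATP family, the latter a thyroxine carrier. They lie on chromosome 6 of GRCm38, 235262 bases apart. *Slco1a4* had 3270.4 and 2505 CPM in control endothelium, against 3499.9 and 3428 CPM in AgRP-Gq;POMC-Gi (3176 ± 457.5 CPM). *Slco1c1* had 1188 and 1016 CPM in the controls, against 1543 and 1230.1 CPM in AgRP-Gq;POMC-Gi (1244 ± 219.6 CPM). In both genes the AgRP-Gq;POMC-Gi libraries stood above the controls. Endothelial nuclei with a UMI made up 83.5% for *Slco1a4* and 64.5% for *Slco1c1*, against 0.44% and 0.92% of oligodendrocytes.

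The choroid plexus, the epithelium that makes cerebrospinal fluid, was the second type for both carriers. *Slco1c1* had 578 and 589 CPM there in the 2 libraries that held 436 and 329 such nuclei, and 78.1% of choroid plexus nuclei had a UMI (75.1 to 81.0%). *Slco1a4* had 195 and 236 CPM in the same libraries and was found in 51.0% of nuclei (47.4 to 54.5%). Choroid plexus nuclei were deeper than endothelial ones, with a median of 4291 UMIs. At 800 UMIs per nucleus the shares were 32.5% for *Slco1c1* and 14.4% for *Slco1a4* in choroid plexus, against 50.7% and 76.7% in endothelium. The choroid plexus held 33.3% of all *Slco1c1* UMIs, astrocytes 32% and endothelium 25.3%. *Slco1c1* in astrocytes was 125 ± 15.9 CPM, and between astrocyte clusters it ran from 9.18 CPM to 207 CPM in cluster 17.

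*Flt1* encodes VEGF receptor 1. It stood at 5641 and 4214 CPM in the controls, against 5340.1 and 5375 CPM in AgRP-Gq;POMC-Gi (5143 ± 634 CPM), and 95.6% of endothelial nuclei had a UMI (93.9 to 96.9%). The groups overlapped. Mural cells, the pericytes and smooth muscle around vessels, had 327 ± 42.7 CPM and a UMI in 32.6% of nuclei. Most of it was carried by cluster 13 with 346 CPM. Oligodendrocytes had 2.99 ± 0.50 CPM and a UMI in 0.74% of nuclei. Fibroblasts had 137 ± 65.7 CPM, and 1 of their 5 clusters was at 0 while cluster 69 had 554 CPM.

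*Tek* encodes TIE2, the angiopoietin receptor. It had 564 and 342 CPM in control endothelium, against 565 and 458 CPM in AgRP-Gq;POMC-Gi (482 ± 106 CPM). *Pecam1*, which encodes an adhesion molecule of endothelium, platelets and leukocytes, had 439 and 547 CPM in the controls, against 687 and 533 CPM in AgRP-Gq;POMC-Gi (551 ± 102 CPM). The groups overlapped in both genes. Outside endothelium *Pecam1* was seen in immune cells, with 27.9 ± 2.21 CPM in Tmem119.Immune and 134 ± 150.1 CPM from 12 UMIs in the 61 nuclei of Ms4a4b.Immune. Oligodendrocytes had 2.01 ± 0.57 CPM of *Pecam1*.

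On GRCm38 *Cldn5* lies at chr16:18776847-18778262, *Slc2a1* at chr4:119108711-119137983, *Abcb1a* at chr5:8660077-8748575, *Slco1c1* at chr6:141524368-141570177 and *Tek* at chr4:94739289-94874976, all on the plus strand. On the minus strand lie *Mfsd2a* at chr4:122946850-122961188, *Slco1a4* at chr6:141805440-141856199, *Flt1* at chr5:147561604-147726011, *Pecam1* at chr11:106654217-106750628 and *Plvap* at chr8:71497765-71511752. Promoters of 8 of the 10 genes, without *Pecam1* and *Plvap*, were found in a RefSeq table on GRCm38.p6, and 4 are shown, those of the pair of neighbouring carriers and of 2 receptor genes, because the carriers were nearly absent from endothelial cluster 164 while the receptors were present there. Each runs 5′ to 3′ from 250.0 bases before to 50 bases after the start, and capitals mark motifs on either strand: GGAAG (ETS), ACAAAG and ACAAT (SOX) and CTTTGA (TCF/LEF).
Slco1a4 (chr6:141856171-141856470, minus strand): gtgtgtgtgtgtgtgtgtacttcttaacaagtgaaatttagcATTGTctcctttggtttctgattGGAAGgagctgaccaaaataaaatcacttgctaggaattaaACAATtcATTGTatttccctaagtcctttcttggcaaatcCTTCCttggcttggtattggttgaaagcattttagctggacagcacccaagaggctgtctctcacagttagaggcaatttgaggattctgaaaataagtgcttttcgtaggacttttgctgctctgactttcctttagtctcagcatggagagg
Slco1c1 (chr6:141524104-141524403, plus strand): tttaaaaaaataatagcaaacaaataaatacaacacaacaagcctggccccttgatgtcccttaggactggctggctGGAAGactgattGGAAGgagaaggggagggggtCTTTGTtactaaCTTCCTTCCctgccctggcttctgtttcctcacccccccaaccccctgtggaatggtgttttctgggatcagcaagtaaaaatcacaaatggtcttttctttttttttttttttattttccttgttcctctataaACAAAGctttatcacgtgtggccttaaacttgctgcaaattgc
Flt1 (chr5:147725962-147726261, minus strand): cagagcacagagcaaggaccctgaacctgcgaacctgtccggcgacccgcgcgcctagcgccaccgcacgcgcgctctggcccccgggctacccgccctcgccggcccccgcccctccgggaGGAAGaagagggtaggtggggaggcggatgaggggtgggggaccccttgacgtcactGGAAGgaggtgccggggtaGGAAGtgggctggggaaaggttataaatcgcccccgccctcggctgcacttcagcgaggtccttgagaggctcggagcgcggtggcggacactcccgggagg
Tek (chr4:94739039-94739338, plus strand): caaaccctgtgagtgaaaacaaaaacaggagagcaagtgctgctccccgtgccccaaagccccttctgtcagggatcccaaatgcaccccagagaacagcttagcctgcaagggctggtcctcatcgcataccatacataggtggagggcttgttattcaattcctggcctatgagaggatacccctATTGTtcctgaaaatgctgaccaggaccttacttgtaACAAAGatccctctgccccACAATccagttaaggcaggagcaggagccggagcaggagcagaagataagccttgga
The motif GGAAG was present in 4 of the 8 promoters and in 71.4% of 32851 promoters in the table. ACAAAG was present in 3 of the 8 and in 18.7% of all, ACAAT in 2 of the 8 and in 31.0% of all, and CTTTGA in 2 of the 8 and in 16% of all. The longer ETS motif CCGGAA, which overlaps GGAAG where a G follows, was in 0 of the 8 and in 14.9% of all. The carrier promoters shown held 40.7% and 42.0% G and C, that of *Flt1* 70.7% and that of *Tek* 52.0%. The *Abcb1a* promoter of the table lies 92986 bases from the start of the gene in GENCODE. Without it the GGAAG motif was in 3 of 7 promoters, each of the pair of SOX motifs in 2 of 7 and the TCF/LEF motif in 1 of 7. These matches describe letters only.

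*Plvap*, which encodes the diaphragm protein of fenestrae, had 2.73 and 72.1 CPM in control endothelium, against 5.82 and 29.1 CPM in AgRP-Gq;POMC-Gi (27.4 ± 32 CPM). Replicate 2 was the higher library in both groups, and the groups overlapped. Only 30 of 789 endothelial nuclei (3.80%, 2.58 to 5.38%) had a *Plvap* UMI, and 22 of these 30 came from control replicate 2. The share was 0.40% in oligodendrocytes.

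The authors divided the endothelial nuclei into 6 clusters, and *Plvap* was concentrated in one of them. Cluster 164, 46 nuclei, held 36 of the 43 endothelial *Plvap* UMIs and 23 of the 30 *Plvap* nuclei. It was taken for this description because its *Plvap* level was the highest of the 6 clusters, so its *Plvap* values carry no test. That level was 523 CPM with libraries pooled against 5.63 CPM in the 743 other endothelial nuclei, a ratio of 92.9. A *Plvap* UMI was seen in 50% of its nuclei (34.9 to 65.1%) and in at most 2.17% of the nuclei of another cluster. All 8 further endothelial markers were detected in cluster 164, at 8587 CPM in sum. *Emcn*, an endothelial sialomucin, had 2267 CPM there against 663 CPM in the others, the largest ratio of the 8, which are all given here. *Egfl7* (1409 against 973 CPM), *Cdh5* (305 against 194 CPM) and *Erg* (291 against 278 CPM) were also higher. *Mecom* was lower, with 959 against 2170 CPM, and so by little were *Adgrl4* (2150 against 2294 CPM), *Ptprb* (1032 against 1093 CPM) and *Tie1* (174 against 179 CPM).

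The 6 genes of junction and transport were nearly absent from cluster 164. *Slc2a1* had 2 UMIs (29.1 CPM) against 1655 CPM in the other clusters, 57.0-fold lower with a 95% counting interval of 15.7 to 471. *Abcb1a* had 3 UMIs and was 26.2-fold lower (8.94 to 127). *Cldn5* had 4 UMIs and was 13.6-fold lower (5.28 to 49.9). *Slco1c1* had 1 UMI against 1559 and was 86.3-fold lower (15.5 to 3412), and *Slco1a4* had 9 UMIs against 4045 and was 24.9-fold lower (13.1 to 54.5). *Mfsd2a* had 0 UMIs, which at a floor of 3 counts is 2.86-fold lower, and its 95% counting interval begins at 2.30-fold. Of all 9294 genes with 20 or more endothelial UMIs, *Slc2a1*, *Slco1c1* and *Slco1a4* ranked 2, 3 and 4 from the lowest by the log2 ratio to the other clusters with 50 CPM added to both, after *Ccdc141*, a gene chosen after its values were seen. The added 50 CPM decides this order, which is not that of the plain folds.

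The receptor and adhesion genes were present in the same nuclei. *Flt1* had 4896 CPM in cluster 164 and 5074 CPM in the others, a ratio of 0.965 (0.862 to 1.077). Within control replicate 2 the ratio was 1.28 (1.12 to 1.46) and over the other 3 libraries 0.681 (0.514 to 0.886), the latter from 56 UMIs. These intervals count UMIs as independent and leave out the spread between nuclei and libraries, so a difference between libraries is not shown. Control replicate 2 also had the lowest *Flt1* outside cluster 164, with 4071 CPM against 5349 to 5659 CPM. *Tek* had 421 against 466 CPM, a ratio of 0.904 (0.600 to 1.31), with 1.23 (0.743 to 1.94) within control replicate 2 and 0.895 (0.358 to 1.86) over the other 3. *Pecam1* had 799 against 517 CPM, a ratio of 1.55 (1.15 to 2.04), and over the 3 libraries other than control replicate 2 the ratio was 1.28 (0.612 to 2.38). These ratios weight libraries by their nuclei, and 34 of the 46 nuclei came from control replicate 2, with 9 from AgRP-Gq;POMC-Gi replicate 2, 1 from control replicate 1 and 2 from AgRP-Gq;POMC-Gi replicate 1.

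**Figure D2:**
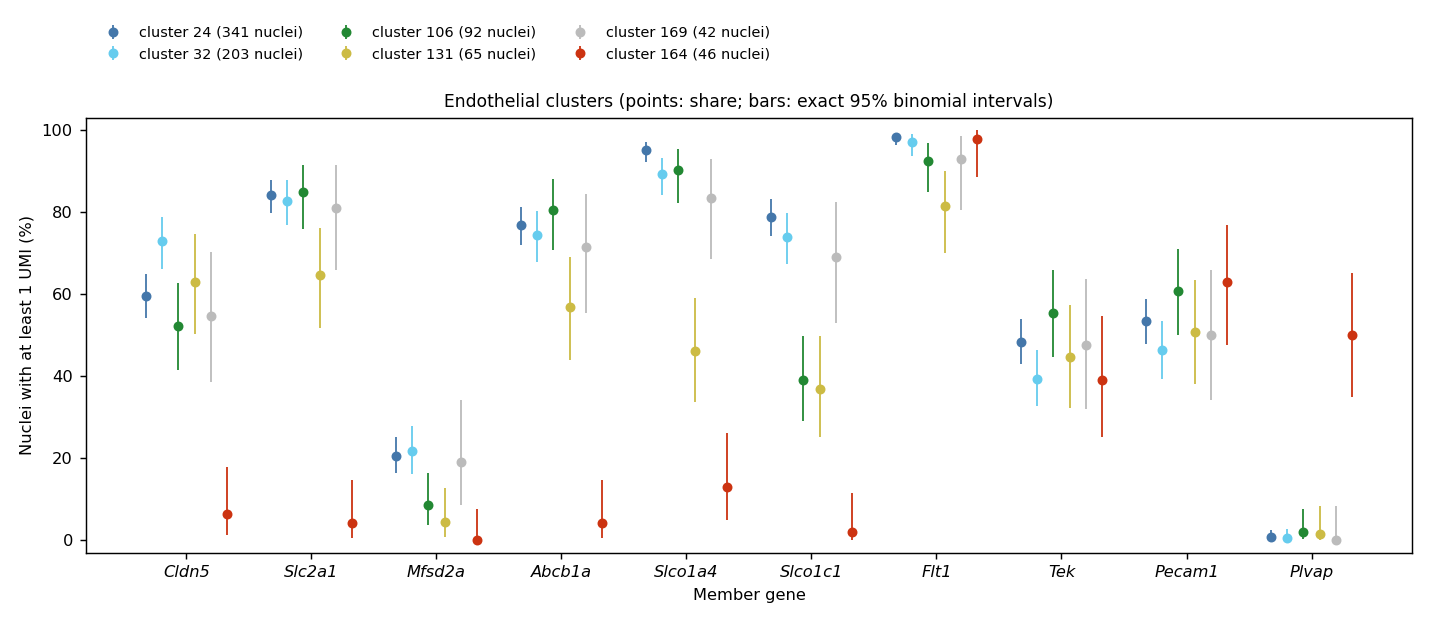
Share of nuclei with at least 1 UMI (y axis, percent) of each of the 10 genes (x axis) in the 6 endothelial clusters, with exact 95% binomial intervals. Cluster 164 (red) lies below the other clusters for the 6 genes from *Cldn5* to *Slco1c1*, though for *Mfsd2a* its interval overlaps those of clusters 106 and 131. It lies among them for *Flt1*, lowest for *Tek* and highest for *Pecam1* with intervals that overlap the others, and alone at 50% for *Plvap*.

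Control replicate 2 held 34 of the 46 nuclei, so its values alone largely repeat the pooled ones. There *Slc2a1* had 18.6 CPM in cluster 164 and 1657 CPM in the other endothelial nuclei, and *Cldn5* 74.2 against 657 CPM. *Plvap*, by which the cluster was chosen, had 482 against 13.3 CPM. In the 12 nuclei of the other 3 libraries *Plvap* had 10 UMIs (670.0 CPM) against 2.31 CPM, while *Cldn5*, *Abcb1a* and *Slco1c1* had 0 UMIs, at least 4.21-, 5.45- and 6.45-fold lower against the floor of 3 counts. The folds of *Slc2a1* and *Slco1a4* were smaller without control replicate 2, but their intervals overlap the pooled ones, so a difference is not shown. *Slc2a1* had 1 UMI in those 12 nuclei, 67.0 against 1654 CPM and 24.7-fold lower (4.42 to 976), and *Slco1a4* had 5 UMIs, 335 against 3429 CPM and 10.2-fold lower (4.38 to 31.5). The 0 UMIs of *Mfsd2a* there show no difference at this depth.

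Single nuclei were split in the same way. Of the 6 junction and transport genes, a nucleus of cluster 164 had a median of 0 detected and a nucleus of the other clusters a median of 4. None of the 6 was detected in 34 of 46 nuclei of cluster 164 (73.9%) and in 15 of 743 others (2.02%). The median depth of cluster 164 was 1301 UMIs, beside those of clusters 32 (1224) and 24 (1484). Inside cluster 164, *Slc2a1* was detected in 0 of 23 nuclei with a *Plvap* UMI and in 2 of 23 without, and *Slco1a4* in 2 of 23 and 4 of 23. Of the 7 *Plvap* nuclei in the other clusters, *Slc2a1* was detected in 6 and *Slco1a4* in 6.

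Further genes of barrier and fenestrae were read from lists of known roles, chosen in the same way. Of 19 other barrier transporters with 20 or more UMIs, 18 were lower in cluster 164 than in the remaining endothelium, against 5186 of all 9294 genes, and the median log2 ratio (with 50 CPM added to both) was -1.69 against -0.06 over all genes. *Slc6a6*, the taurine carrier, had 189 against 942 CPM and *Abcc4*, an efflux pump, 262 against 878 CPM, whereas *Abcg2*, another efflux pump, had 973 against 1207 CPM. Of 21 genes of Wnt signalling and barrier regulation, 17 were lower, with a median of -0.87. *Lef1*, a transcription factor of Wnt signalling, had 29.1 against 1057 CPM, *Apcdd1*, a Wnt target, 14.5 against 204 CPM and *Fzd6*, a Wnt receptor, 87.2 against 285 CPM.

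Of 10 junction genes 8 were lower, with a median of -0.35. *Tjp1*, the scaffold ZO-1, had 291 against 1444 CPM and *Ocln*, occludin, 0 UMIs against 253 CPM, while *Esam*, an adhesion molecule, had 232 against 291 CPM. The list of fenestrae, caveolae and VEGF signalling went the other way, with 2 of 11 lower and a median of 1.43. It was chosen with earlier results of these data known, so this is a description only. It holds *Plpp3*, *Nrp1* and *Igfbp3*, which rank 1, 7 and 14 from the highest by this ratio. *Igfbp3* had 33 UMIs in cluster 164 and 19 elsewhere, so it reached 20 UMIs only through this cluster. *Plpp3* and *Igfbp3* are named after their values were seen. *Nrp1*, a VEGF co-receptor, had 2906 against 237 CPM. *Cavin2*, a caveolar coat protein, had 131 against 253 CPM.

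Clusters other than 164 also differed in barrier genes. Cluster 131, 65 nuclei, held the most arterial marker UMIs (3122 CPM for 11 genes, against at most 379.7 CPM elsewhere). It had 745.5 CPM of *Slco1a4* against 2450.2 to 4019 CPM in clusters 24, 32, 106 and 169, and 623 CPM of *Abcb1a* against 1042.5 to 1302 CPM. Its 3 *Mfsd2a* UMIs gave 26.3 CPM. Cluster 106, 92 nuclei, was highest in venous markers (6394 CPM for 8 genes, against at most 868 CPM) and low in *Slco1c1* (435 CPM against 1151 to 1657 CPM in clusters 24, 32 and 169) and in *Mfsd2a* (60.5 CPM). Cluster 24, the largest with 341 nuclei, had the highest *Slco1a4*, *Slco1c1*, *Abcb1a* and *Flt1*. Cluster 32 had the highest *Cldn5* (1180.0 CPM) and also 1286 CPM of 11 mural markers, against at most 893 CPM in the other clusters, and the part of mural RNA in its values was not tested.

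Cluster 164 moved with the choroid plexus between libraries. The libraries with 2, 436, 6 and 329 choroid plexus nuclei held 1, 34, 2 and 9 nuclei of cluster 164, in the order control replicates 1 and 2 and AgRP-Gq;POMC-Gi replicates 1 and 2. RNA of *Ttr*, the transthyretin gene of choroid plexus epithelium, chosen after its values were seen, was spread through these libraries: in oligodendrocytes it stood at 5.97, 3333, 24.3 and 2085 CPM, and in endothelium outside cluster 164 at 8.21, 6602, 41.2 and 3729 CPM. In cluster 164 it was 16215 and 17665 CPM in the replicate 2 libraries. All 4 choroid plexus markers were detected in cluster 164, with 15822 CPM in sum, whereas 8 of 11 mural and 5 of 6 fibroblast markers were at 0. The part of this RNA in the cluster's values was not tested, and library and choroid plexus content cannot be told apart here.

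**Figure D3:**
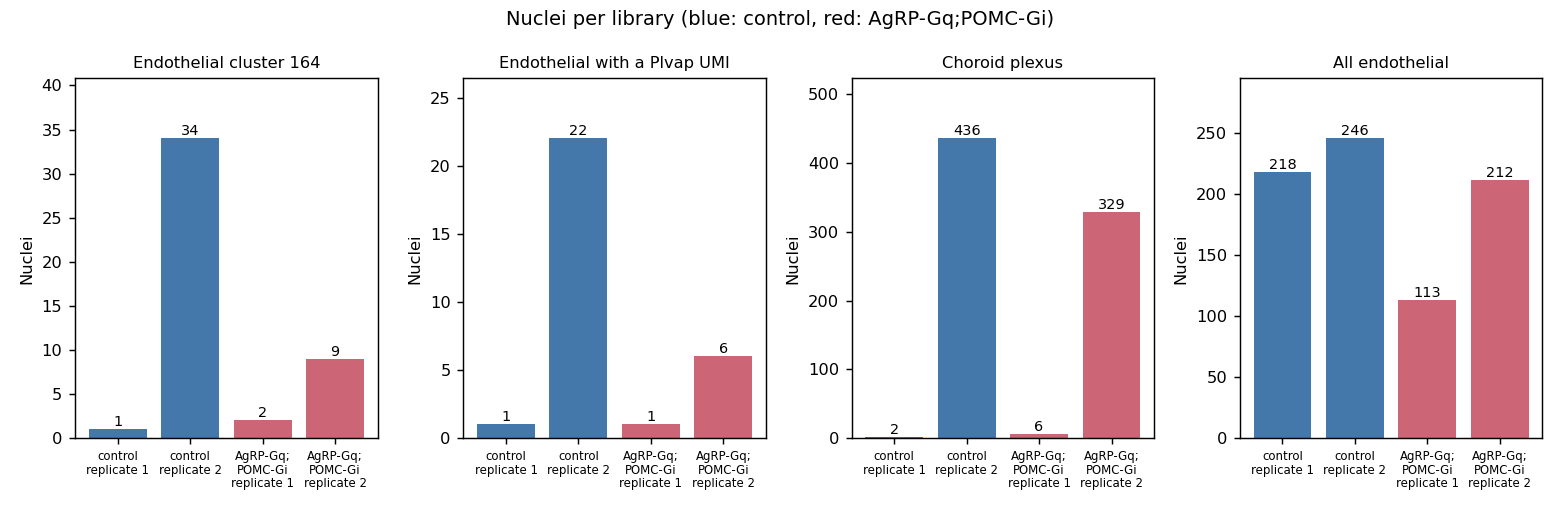
Nuclei per library (y axis, counts) of endothelial cluster 164, of endothelial nuclei with a *Plvap* UMI, of choroid plexus and of all endothelium, with the count on each bar. The replicate 2 libraries of both groups hold 43 of the 46 nuclei of cluster 164 and nearly all choroid plexus, while endothelium as a whole is spread over all 4.

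Endothelial nuclei were also divided by *Plvap* itself and tested between the 30 nuclei with and the 759 without a UMI. With libraries pooled, *Cldn5* had 92.1 against 785 CPM, *Slco1a4* 491 against 3227 CPM, *Slco1c1* 169 against 1243 CPM and *Slc2a1* 553 against 1623 CPM, while *Flt1* had 4190.4 against 5110.1 CPM and *Pecam1* 752 against 519.8 CPM. Most of these UMIs came from control replicate 2, and the values moved without it: *Slc2a1* became 1136 against 1634 CPM, *Slco1a4* 874 against 3409 CPM, *Slco1c1* 87.4 against 1289 CPM and *Flt1* 7076 against 5458 CPM, while *Cldn5* had 0 UMIs. The libraries differed, *Slc2a1* standing at 4700.4, 428, 0 and 127 CPM in the *Plvap* nuclei of control replicates 1 and 2 and AgRP-Gq;POMC-Gi replicates 1 and 2, against 2193, 1597, 1406 and 1143 CPM in the others. In the single *Plvap* nucleus of control replicate 1 it was thus the higher. The edgeR quasi-likelihood test with the library as a block called 0 of 9 genes, with 0% of 5884 genes called in all and 633 at an unadjusted p under 0.05. For *Cldn5* it gave a log2 difference of -4.22 (SE 1.21, edgeR adjusted p = 0.236), and for *Slco1c1* -4.04 (SE 1.13, edgeR adjusted p = 0.236). The median of all genes in this fit was itself -0.90. Without TMM scaling that median was -0.20, and *Cldn5* had -3.22 and *Slco1c1* -2.97. Leaving out 1 library moved *Cldn5* between -10.0 and -3.72 and *Slco1c1* between -5.44 and -3.46. Only 1, 22, 1 and 6 *Plvap* nuclei entered from the 4 libraries. In simulated data the blocked edgeR fit recovered 4% of genes changed 16-fold. That rate is over 200 changed genes and was not read for genes counted as well as *Cldn5* or *Slco1c1*. The lack of calls does not show that levels were equal. Library size without TMM scaling and DESeq2 each called 3 of the 9 genes lower in *Plvap* nuclei (*Cldn5*, *Slco1a4* and *Slco1c1*), beside 0.204% and 0.221% of all 5884 genes called lower. A fit with no library term called 5 of the 9 lower, beside 2.57% of all genes. All genes tested had a UMI in at least 5% of endothelial nuclei, and 3.80% of those nuclei had a *Plvap* UMI. Genes found only in *Plvap* nuclei could therefore not enter. The tested set thus leans to genes of the other nuclei, and these calls are a description only. Without TMM the signs of *Flt1* and *Pecam1* turned from negative to 0.29 and 0.35.

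To ask whether the treatment of AgRP and POMC neurons went with a change in the vessels, the groups were compared in endothelium. *Cldn5* had the log2 difference (AgRP-Gq;POMC-Gi minus control) farthest from 0 of the 9 genes tested, 0.59 (SE 0.20), and *Slc2a1* followed with -0.54 (SE 0.26). Neither passed the adjustment over 5884 genes (edgeR adjusted p = 0.569 and 0.817), and over the alternatives the adjusted p ranged from 0.261 to 1 for *Cldn5* and from 0.12 to 1 for *Slc2a1*. The edgeR fit called 0 of the 9 genes tested and 0% of all genes, with 364 genes at an unadjusted p under 0.05, 1 of them (*Cldn5*) among the 10, and DESeq2 also called 0. *Plvap* had a UMI in under 5% of nuclei and entered only with other gene filters, with a log2 difference of -0.92 (SE 0.95, edgeR adjusted p = 0.965) under filterByExpr and -0.95 (SE 0.54, edgeR adjusted p = 0.932) with no filter.

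**Figure D4:**
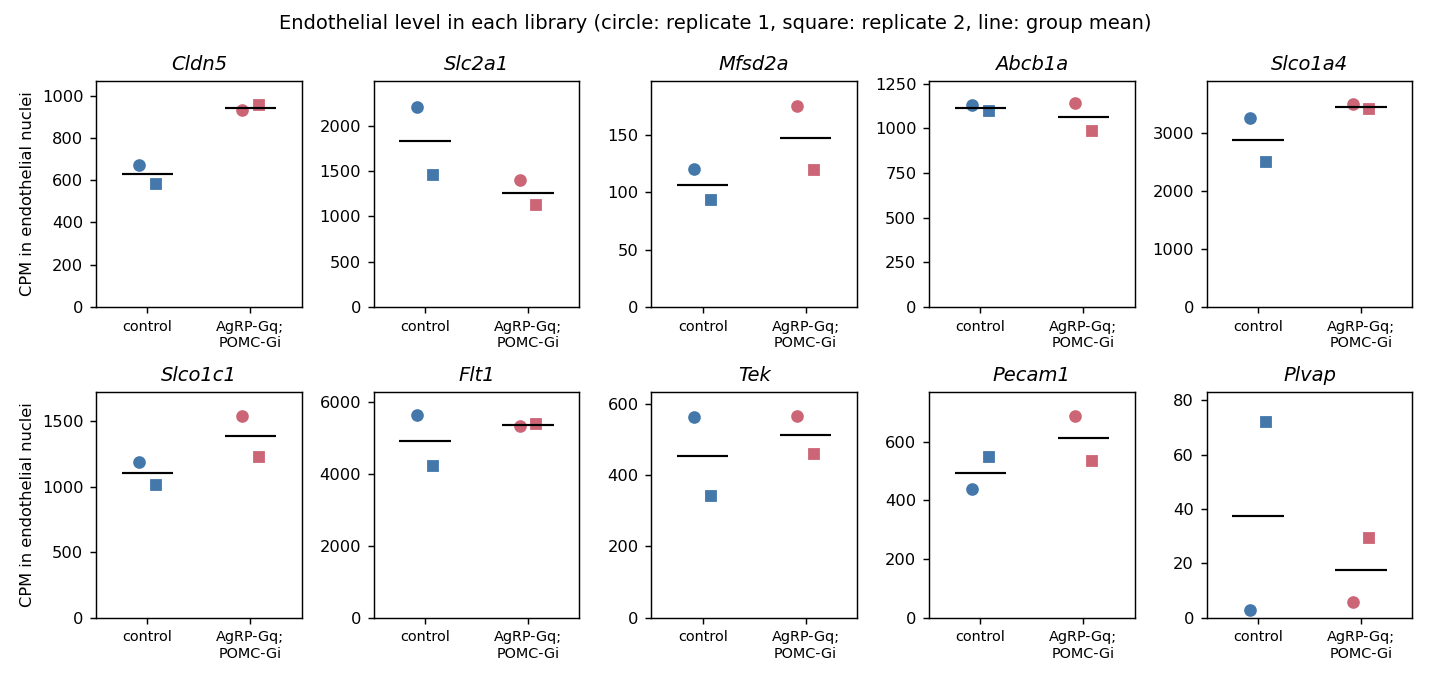
CPM in endothelial nuclei (y axes, linear from 0) of each gene in the 2 control (blue) and 2 AgRP-Gq;POMC-Gi libraries (red), with circles for replicate 1, squares for replicate 2 and lines for group means. *Cldn5*, *Slco1a4* and *Slco1c1* lie higher and *Slc2a1* lower in both AgRP-Gq;POMC-Gi libraries, and the other 6 genes overlap.

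The remaining log2 differences were 0.41 (SE 0.30) for *Mfsd2a*, 0.33 (SE 0.23) for *Slco1c1*, 0.29 (SE 0.22) for *Pecam1*, 0.26 (SE 0.25) for *Slco1a4*, 0.17 (SE 0.25) for *Tek*, 0.12 (SE 0.27) for *Flt1* and -0.07 (SE 0.22) for *Abcb1a*. The directions of *Tek*, *Flt1* and *Abcb1a* turned when a library was left out. The median of the 9 genes was 0.26 and that of all genes tested 0.01. The groups did not overlap in 4 of the 9 genes, beside 35.5% of all genes tested, 18.2% higher and 17.3% lower, so this count is near the background. In simulated data the fit recovered 13.5% of genes changed 2-fold and 93.5% of genes changed 4-fold.

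The groups were also compared within the 5 clusters other than 164, which come from the same libraries and so add no replicate. *Cldn5* stood above both controls in both AgRP-Gq;POMC-Gi libraries in 4 of the 5, for example 1069 and 1054 CPM against 1291 and 1326 CPM in cluster 32. *Slc2a1* stood below both controls in 4 of the 5, for example 2155 and 1620.1 CPM against 1396 and 1151 CPM in cluster 24. Of all 5884 genes tested, whatever their level, 0.612% stood higher and 0.799% lower in this way in at least 4 of the 5. These shares include genes with few UMIs and are not matched to the counts of *Cldn5* and *Slc2a1*. Both genes already stood apart in the endothelial sums, which are made mostly of these same nuclei, so the recurrence is partly fixed in advance. Some sums are small, as AgRP-Gq;POMC-Gi replicate 1 had 6 nuclei in cluster 131 and 9 in cluster 169. A shift of a whole library also recurs in its clusters. Over endothelium as a whole 18.2% of genes stood higher and 17.3% lower without overlap. *Slco1a4* stood higher in 3 clusters and overlapped in 2. *Slco1c1* was mixed, higher in 2, lower in 1 and overlapping in 2, and *Mfsd2a* overlapped in all 5. Without cluster 164 the log2 differences were 0.53 for *Cldn5* and -0.60 for *Slc2a1*, and neither passed the adjustment (edgeR adjusted p = 0.581 and 0.590). Leaving out 1 library at a time gave 21 to 59 called genes in endothelium, none of them among the 10.

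No list of vessel genes had a called member in endothelium. The 19 barrier transporters tested had a median log2 difference of 0.13, the 20 Wnt and regulator genes 0.12, the 10 junction genes 0.01 and the 10 genes of fenestrae, caveolae and VEGF signalling 0.16. The arterial list had a median of 0.05 over 5 genes and the capillary list 0.24 over 6. The 5 venous markers tested had a median of 1.06 and all 5 were positive, beside 3018 of all 5884 genes. An unadjusted p under 0.05 was reached by 4 of the 5 venous markers, 6 of the 19 barrier transporters, 2 of the 6 capillary genes, 2 of the 20 Wnt and regulator genes, 2 of the 10 junction genes, 1 of the 8 endothelial markers and 0 of the arterial and fenestrae lists, beside 364 of all 5884 genes. Genes of a list can vary together and are not separate tests, and that background is not matched for level. Cluster 106, highest in venous markers, made up 9.63 and 12.2% of endothelial nuclei in the controls, against 13.3 and 12.3% in AgRP-Gq;POMC-Gi. The part of the mix of clusters in these differences was not tested. The lists share genes, and *Slc38a5* (venous and transporter) and *Tfrc* (capillary and transporter), named after their values were seen, are counted in both of their lists. *Il1r1*, the interleukin-1 receptor, led the venous list with 543 ± 124 CPM in endothelium and 575 CPM outside cluster 164 with libraries pooled.

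In the other cell types 26 pairs of gene and type could be tested, and edgeR called 0 of them. The share of all genes called was 0.626% in astrocytes, 0.751% in mural cells, 0.187% in Ms4a4b.Immune, 0.0444% in OPC, 0.0154% in F13a1.Immune and 0% in the other 7 types fitted. *Mfsd2a* in astrocytes had a log2 difference of -0.32 (SE 0.19, edgeR adjusted p = 0.621), and leaving out AgRP-Gq;POMC-Gi replicate 1 gave -0.72, which was called (edgeR adjusted p = 0.0128) together with 1.89% of all genes. Leaving out AgRP-Gq;POMC-Gi replicate 2 turned it to 0.02 (edgeR adjusted p = 0.937), so the call and the direction rested on which libraries entered. Without the gene filter *Flt1* and *Slco1a4* were called in OPC, with 0.183% of all genes. There control replicate 1 held 33 of 41 *Flt1* UMIs and 24 of 27 *Slco1a4* UMIs. Of the 26 pairs, 11 did not overlap between groups and all 11 lay lower in AgRP-Gq;POMC-Gi. They were *Slc2a1* in 6 of its 9 types, *Mfsd2a* in astrocytes and OPC, *Slco1a4* in fibroblasts and mural cells, and *Plvap* in neurons. The share of all genes lower without overlap was 22.2% in astrocytes, 18.3% in ependymal cells, 17.1% in fibroblasts, 20.3% in mural cells, 27.7% in neurons, 20.3% in OPC, 23.3% in oligodendrocytes and 15.4% in Oligodendrocytes/OPC. It is not given for F13a1.Immune, Ms4a4b.Immune and Tanycyte-like, whose pairs all overlapped. Shares of genes lying higher in these other types are not given either, so 11 of 26 has no matched background. *Slc2a1* also lay lower in endothelium. In oligodendrocytes it had 48.9 and 49.7 CPM in the controls, against 32.4 and 44.6 CPM in AgRP-Gq;POMC-Gi (log2 difference -0.31, edgeR adjusted p = 0.500). The types share libraries and are not separate replicates.

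*Slco1a4*, which stood above the controls in AgRP-Gq;POMC-Gi endothelium, stood below them in mural cells and fibroblasts, and the difference between types was not tested. Mural cells had 59.8 and 49.0 CPM in the controls, against 27.0 and 22.4 CPM in AgRP-Gq;POMC-Gi (log2 difference -1.14, edgeR adjusted p = 0.529), from 63 UMIs. *Slco1a4* UMIs were found in 5.96% of mural nuclei. *Plvap* and *Tek* in neurons did not differ past the threshold, with log2 differences of -0.09 (SE 0.10) and 0.12 (SE 0.10).

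Neurons held most of the UMIs of *Plvap* and *Tek*. Their share was 92.5% of *Plvap* UMIs against 1.68% in endothelium, and 87.9% of *Tek* UMIs against 7.18%. Neurons also held far more UMIs of all genes, 125151498 against 1311698, so these shares do not rank the types by level. The mean level was higher in endothelium for *Tek*, with 482 against 59.4 CPM. For *Plvap* it was 27.4 against 19.0 CPM, an order that turned without control replicate 2. The neuronal *Plvap* level was even between libraries, 19.7, 20.2, 17.5 and 18.7 CPM (19.0 ± 1.22 CPM), and lay above the 1.5 ± 0.40 CPM of oligodendrocytes. *Tek* had 59.4 ± 4.22 CPM in neurons and 2.49 ± 0.56 CPM in oligodendrocytes. A *Plvap* UMI was seen in 16.4% of neurons, whose median depth was 8704 UMIs. At 800 UMIs per nucleus the share was 1.71% in neurons, 2.66% in endothelium and 0.11% in oligodendrocytes, and for *Tek* it was 4.31%, 29.8% and 0.20%.

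**Figure D5:**
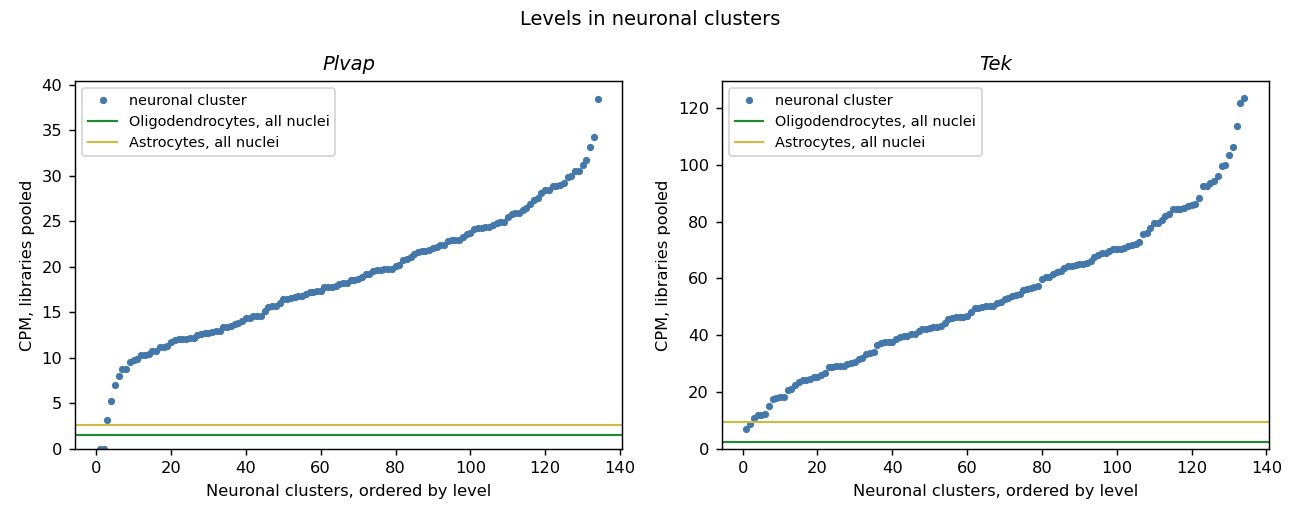
Pooled CPM (y axis) of *Plvap* and *Tek* in 134 neuronal clusters ordered by level (x axis), with horizontal lines at the pooled levels of oligodendrocytes and astrocytes. *Plvap* runs up to 38.5 CPM and exceeds oligodendrocytes in 132 clusters, and *Tek* runs from 7.0 to 124 CPM and exceeds them in all 134.

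Both genes were spread over neurons rather than held by a few clusters. *Plvap* had a median of 18.4 CPM over 134 neuronal clusters and 0 UMIs in 2 of them, and *Tek* a median of 51.0 CPM. The 5 genes most like *Plvap* over the 14 cell types were *Tek* (r = 0.88), *Nos1*, *A030001D20Rik*, *Shank3* and *Ptprq* (r = 0.84 to 0.87), a description over types that share libraries. *Plvap* shares 1819 bases on chromosome 8 with *Gtpbp3* on the opposite strand (GRCm38), a gene chosen after its values were seen, which had 14.7 ± 0.36 CPM in neurons and 6.70 ± 1.12 CPM in endothelium. Whether reads of one gene were counted for the other was not tested.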

How the data were processed

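Nuclei of 4 hindbrain libraries (2 control, 2 AgRP-Gq;POMC-Gi) were analysed from the deposited files. The authors mapped reads to GRCm38 (mm10) with Cell Ranger 7.0.0 and deposited UMI counts per gene and nucleus, and their table gives the percent of UMIs from mitochondrial genes, the filter result, clusters and cell types made with Seurat 4.3.0 and an scVI embedding. Nuclei under 800 UMIs or 500 genes, or above 10% mitochondrial UMIs, were removed by the authors, who also ran a doublet caller, and no further doublet removal was applied here. Of 44303 barcodes 39461 were kept, and UMI totals in the matrices and the table were equal for 44303. The columns of activity scores were not used.

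Counts were summed per library and cell type and scaled to CPM. Shares of nuclei have exact 95% binomial intervals, and a count of 0 was given a floor of 3 counts. For shares across depths each nucleus was also thinned to 800 UMIs. Groups were compared with edgeR 4.0.16 (TMM, quasi-likelihood, Benjamini-Hochberg, threshold 0.05, two-sided) on genes found in at least 5% of the nuclei of a type, with DESeq2 1.42.0 as an alternative (R 4.3.3, Python 3.11.15). The choroid plexus was not tested, since a library held 2 of its nuclei. The authors' test on single nuclei, a model with sample-level effects, was not repeated, and sums per library were used instead. Fits were tested on simulated counts with 200 changed genes. Other alternatives were no gene filter, filterByExpr in endothelium, library size without TMM, thinned nuclei, a replicate block and leaving out each library.

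The 10 genes and the gene lists were chosen with earlier results of these data known. Named genes are the 10, the 3 with the highest mean level of each list and the 5 most like *Cldn5* and *Plvap* over types, and any other is said to be chosen after its values were seen. Promoters came from RefSeq on GRCm38.p6 and gene positions from GENCODE.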

Additional observations from a re-analysis of the deposited data

Results flagged for a closer look

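*Slco1a4* was picked out because its groups did not overlap in opposite directions in different cell types. Its log2 difference (AgRP-Gq;POMC-Gi minus control) was -1.14 in mural cells and -1.13 in fibroblasts, against 0.26 in endothelium. None of the 3 passed the edgeR adjustment, and the difference between cell types was not tested. Mural cells held 63 *Slco1a4* UMIs in all and fibroblasts 67, so the values outside endothelium rest on few counts. Fibroblasts had 66.7 and 36.3 CPM in the controls, against 29.3 and 9.76 CPM in AgRP-Gq;POMC-Gi.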

How the results depend on the processing

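In endothelium the count of genes differing between groups was 0, and it became 52 without the gene filter, 41 with a replicate block, 2 without cluster 164 (chosen after seeing the data) and 21 to 59 when 1 library was left out, lowest without AgRP-Gq;POMC-Gi replicate 2 and highest without control replicate 2. None of these settings called one of the 10 genes, and the cause was not tested. Leaving out 1 library moved the log2 difference of *Abcb1a* between -0.20 and 0.067, of *Flt1* between -0.075 and 0.34 and of *Tek* between -0.15 and 0.56, which turned their direction. Without a change of direction it moved *Slc2a1* between -0.81 and -0.21, *Mfsd2a* between 0.15 and 0.75, *Slco1a4* between 0.082 and 0.46, *Slco1c1* between 0.13 and 0.52, *Pecam1* between 0.087 and 0.51 and *Cldn5* between 0.49 and 0.69. In the other cell types 0 pairs were called, against 2 without the gene filter (*Flt1* and *Slco1a4* in OPC, with 0.183% of all genes), 0 with a replicate block and 0 to 1 with a library left out. In the division by *Plvap*, 0 genes of the 9 were called, against 3 without TMM, 3 with DESeq2 and 5 with no replicate block (no library term), beside 0.204%, 0.221% and 2.57% of all genes called lower, and 0 to 0 with a library left out. The gene filter kept out genes found only in *Plvap* nuclei. Without TMM the log2 differences of *Flt1* and *Pecam1* became 0.29 and 0.35; TMM moved the median of all genes to -0.90, against -0.20 without it. The division could not be fitted in nuclei free of other types' markers, which left 1 *Plvap* nucleus. Endothelium had the highest level of 9 genes, and of 8 to 10 under the alternatives. For *Plvap* it lost that place to neurons without control replicate 2, outside cluster 164 and by mean log-normalized value, and to F13a1.Immune in nuclei with at least 2000 UMIs.

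Libraries of the 2 groups share replicate numbers. The correlation of same-numbered deviations was 0.05 in endothelium. Over the cell types it ran from -0.36 in Oligodendrocytes/OPC and -0.15 in fibroblasts to 0.18 in neurons, 0.24 in astrocytes and 0.34 in oligodendrocytes. The labels tie a number to no animal or day, so the block was used only as an alternative. The lowest edgeR adjusted p of *Cldn5* in endothelium, 0.261, came from this alternative. The block moved the count of called genes from 0 to 168 in neurons, from 0 to 227 in oligodendrocytes and from 53 to 426 in astrocytes, none of them a member. A crossed block in fibroblasts and Oligodendrocytes/OPC, added after seeing the data, called 0 and 1 genes, none a member. The *Plvap* values rest on 43 endothelial UMIs, and each group has 2 libraries.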
